A study of Mus musculus with 4 samples.

Results

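The transcripts examined here were those of 10 genes that encode AP-1 subunits and other immediate early transcription factors, namely Fos, Fosb, Fosl1, Fosl2, Jun, Junb, Jund, Egr1, Egr2 and Atf3. They were chosen by gene symbol from the 55487 genes of the count table, and all 10 held enough counts to be tested. RNA was sequenced from mouse embryonic fibroblasts (MEFs), primary wild-type cells prepared from C57BL/6J embryos at mid-gestation, that had been cultured for 24 h with pigment epithelium-derived factor (PEDF, a secreted glycoprotein of the serpin family) at 100 ng/mL or left untreated. The protein was purified from mammalian cells, and all cultures were at passage 2 by the labels and grew in medium with fetal bovine serum. Experiments 1 and 2 each contributed 1 control and 1 PEDF library, made from MEFs of separate embryos, so that each condition had 2 libraries. The libraries held between 14722848 and 18144640 counts.

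AP-1 is a family of transcription factor dimers built from basic leucine zipper (bZIP) proteins. The Fos proteins bind DNA only as partners of another bZIP protein, most often a Jun protein, whereas the Jun proteins can also pair with each other. Fos, Jun, Egr1 and their relatives are called immediate early genes because serum, growth factors and stress raise their transcription rapidly and without new protein synthesis, through kinase cascades that act on serum response factor, ternary complex factors and CREB-related proteins. In fibroblasts the induced transcripts are short-lived, and the proteins take part in entry into the cell cycle, matrix remodeling and the response to stress.

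The stretches immediately upstream of the start sites of Fos, Fosb, Egr2 and Atf3 are shown because they hold binding motifs of such upstream factors within reach of the start. The sequences are those of RefSeq for the build GRCm38.p6, 5′ to 3′ on the strand of the gene, and each ends at the base before a RefSeq start site. Capitals mark TGACG, the core of the cAMP response element, on either strand (CGTCA where it lies on the other strand), and the CArG box, the site of serum response factor. The last 6 bases of the Fosb stretch and the last 7 of the Atf3 stretch, which include its motif, lie in an exon of GENCODE release M21.
Fos, chr12:85473790-85473889, plus strand: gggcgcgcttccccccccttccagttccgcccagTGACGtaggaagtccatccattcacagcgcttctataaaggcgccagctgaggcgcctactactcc
Fosb, chr7:19310046-19310145, minus strand: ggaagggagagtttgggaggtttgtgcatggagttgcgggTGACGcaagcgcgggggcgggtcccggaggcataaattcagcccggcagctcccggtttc
Egr2, chr10:67537769-67537868, plus strand: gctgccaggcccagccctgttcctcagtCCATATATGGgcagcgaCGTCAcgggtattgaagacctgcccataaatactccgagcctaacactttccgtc
Atf3, chr1:191183334-191183433, minus strand: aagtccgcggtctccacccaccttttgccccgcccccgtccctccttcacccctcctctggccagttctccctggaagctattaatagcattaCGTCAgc

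RefSeq promoter entries were matched for 8 of the 10 genes, with 12 start sites between them, and Fosl1 and Egr1 were not matched. Over the 250 bases upstream of each start, searched on both strands, TGACG was found in 5 genes, the 4 above and Junb, against 19.8% of all 27025 genes with entries. In Fos it lay at -129 to -125 and at -66 to -62 relative to the start, and in Fosb at -60 to -56. The CArG box was found in 1 gene, Egr2, at -72 to -63 of the start shown, against 1.62% of all genes. The Egr2 start nearest the gene start in the count table, 24 bases from it, had no TGACG and no CArG box. Bases farther upstream were not searched in any gene. Neither TGACGTCA, which contains TGACG, nor the AP-1 site TGACTCA was found in any of the 8 genes, against 1.77% and 5.16% of all genes. Genes with more start sites, such as Egr2, had more bases searched. These matches describe letters within the stretches searched and nothing more.

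The levels of the 10 genes per transcript length were compared first. Levels are given as TPM, the share of each transcript in a library after division by its length, as the authors deposited them. Jund was the highest, at 390 ± 23.1 TPM (mean ± SD, n = 4 libraries, both conditions together), followed by Junb at 178 ± 10.6 and Jun at 157 ± 6.13. Egr1 stood at 82.8 ± 3.63 TPM and Fosl2 at 53.1 ± 4.34. Fosl1 and Fos were nearly level at 22.6 ± 4.60 and 22.5 ± 1.19 TPM, Atf3 and Egr2 were lower at 10.1 ± 1.95 and 7.39 ± 1.31, and Fosb was the lowest at 1.26 ± 0.36. The ranges of the 4 libraries overlapped between Junb and Jun, between Fosl1 and Fos, and between Atf3 and Egr2, and the other neighbors in this order did not overlap. Among the 19384 genes tested, Jund stood at the 98.5th percentile of mean TPM and Fosb at the 21st.

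**Figure D1:**
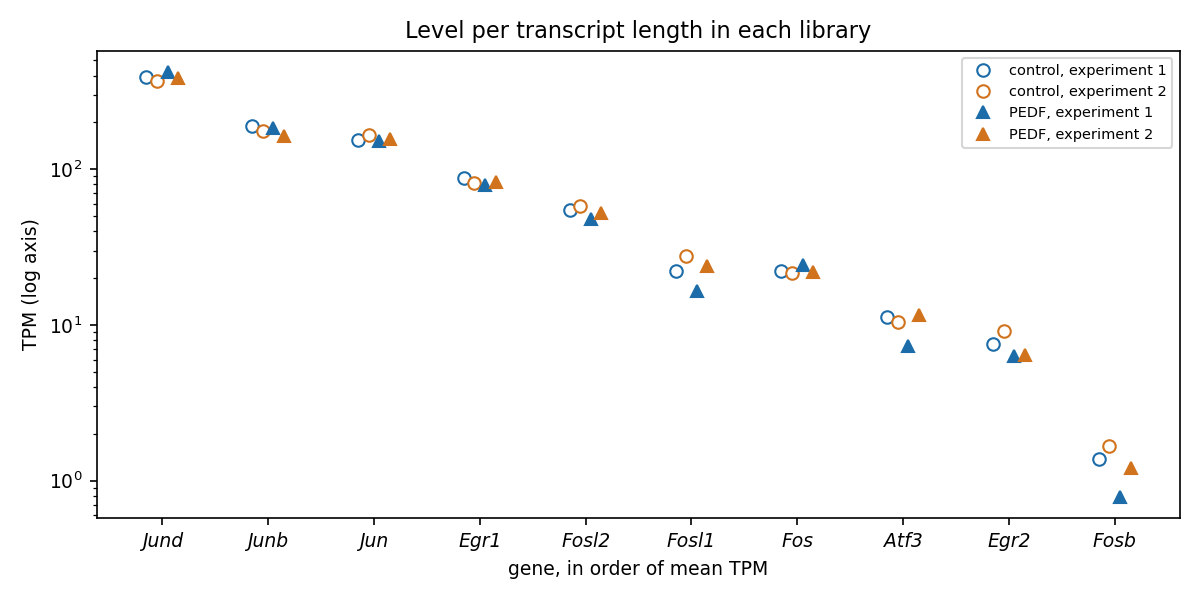
TPM on a log axis for each gene, in order of the mean over the 4 libraries, with open circles for control, filled triangles for PEDF, blue for experiment 1 and orange for experiment 2. Jund is the highest in every library and Fosb the lowest, and Fosl1 and Fos overlap.

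The comparison of PEDF with control asked whether the transcripts of these factors stood at a different level after 24 h with PEDF. By the quasi-likelihood test of edgeR, none of the 10 reached an adjusted p under 0.05, whether fitted without the experiment as a block (adjusted p from 0.714 to 0.946) or with it (adjusted p from 0.0565 to 0.848). Of all 19384 genes tested, 0.00516% passed without the block and 3.75% with it. Without the block, 2 of the 10 genes, Fosl2 and Egr2, had an unadjusted p under 0.05, both lower with PEDF, against 3.66% of all genes lower at that level. With the block, 4 were lower at that level (Fosb, Fosl1, Fosl2 and Egr2) and 1 was higher (Jund), against 7.38% and 7.18% of all genes. DESeq2 gave no unadjusted p under 0.05 for any of the 10, with or without the block. The p-values rest on 2 MEF preparations per condition, and in bulk RNA fewer cells of a type and less RNA per cell cannot be told apart.

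The direction within each experiment was examined next, as the log2 ratio of CPM, which are counts scaled to a common library size with edgeR's TMM factors, in the PEDF library to that in the control library. Fosb, Fosl1, Fosl2 and Egr2 were lower with PEDF in both experiments, Fos and Jund were higher in both, and Jun, Junb, Egr1 and Atf3 took opposite directions. Thus 4 of 10 were lower in both experiments, where 28.8% of all genes were, and 2 of 10 were higher in both, where 30.1% of all genes were. This count depended on the scaling. With ratios of TPM, Jun (-0.02 and -0.09 in experiments 1 and 2) and Junb (-0.03 and -0.10) were also lower in both experiments. The split was then 6 lower in both, 2 higher in both and 2 opposite, against 34.0% of all genes lower in both and 24.5% higher in both. In 3 genes, Fosb, Fosl2 and Egr2, both PEDF libraries lay below both control libraries, as they did in 18.4% of all genes. None of the 10 had both PEDF libraries above both control libraries, an order found in 18.9% of all genes. The median log2 fold change of the 10 was -0.10, and that of all genes was 0.0012.

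**Figure D2:**
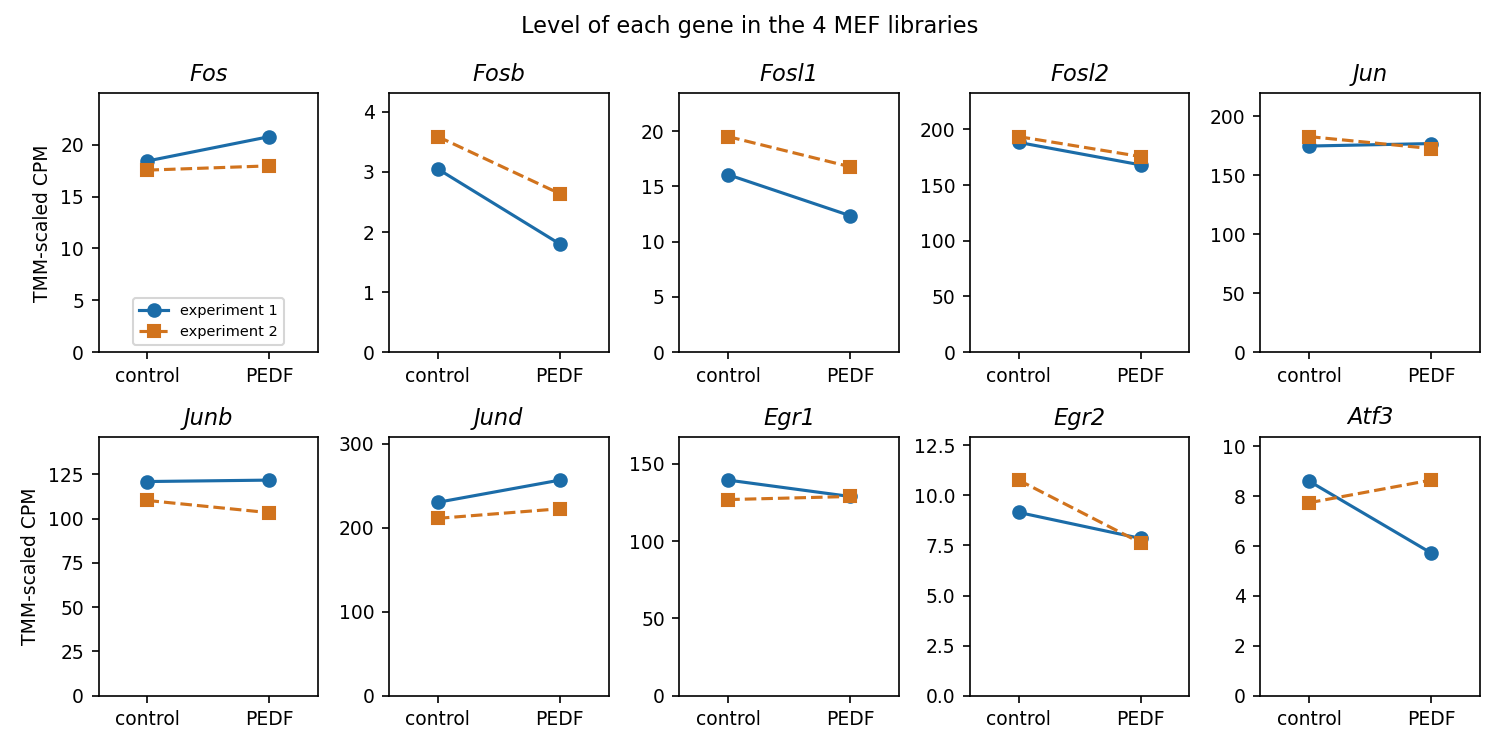
TMM-scaled CPM of each gene in control and PEDF libraries, with a line joining the libraries of an experiment (blue circles, experiment 1; orange squares, experiment 2) and every axis starting at 0. Both lines slope down for Fosb, Fosl1, Fosl2 and Egr2, both slope up for Fos and Jund, and the lines of Atf3 cross.

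Among the Fos family, Fos, the prototype subunit of AP-1 (ENSMUSG00000021250, chromosome 12, 85473890 to 85477273, plus strand, GRCm38), had 18.4 and 17.5 CPM in the controls of experiments 1 and 2 and 20.8 and 18.0 CPM after PEDF. The PEDF library of experiment 1 was the highest, and the groups overlapped. The log2 fold change was 0.11 ± 0.13 (SE), with a 95% interval from -0.16 to 0.37 and an adjusted p of 0.893 by edgeR. Without the PEDF library of experiment 1, with the remaining PEDF library set against both controls, it was -0.0019. Within experiment 2 alone the log2 ratio was 0.03. With the block and the length trend described below for Fosl2 removed, the log2 fold change of Fos was 0.04 ± 0.11.

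Fosb (ENSMUSG00000003545, chromosome 7, 19302696 to 19310051, minus strand), which encodes a Fos relative also known from long-lasting neuronal responses, was counted only 45 and 64 times in the controls and 28 and 47 times after PEDF. These counts correspond to 3.05 and 3.59 CPM in control and 1.80 and 2.64 CPM in PEDF-treated MEFs. The groups did not overlap, and the PEDF libraries held 59.1% and 73.5% of the level of their own control. The log2 fold change was -0.57 ± 0.30, with a 95% interval from -1.21 to 0.06 (adjusted p = 0.741 by edgeR, and 0.316 with the block). It was the largest in size of the 10 genes in this fit. Without the PEDF library of experiment 1 it was -0.34, smaller in size than that of Egr2 (-0.39). At this depth the exact 95% counting interval of the log2 ratio reached from -1.50 to -0.05 in experiment 1 and from -1.02 to 0.12 in experiment 2. These intervals cover counting error only.

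Fosl1, which encodes Fra-1, a subunit induced later and longer than Fos in growing fibroblasts (ENSMUSG00000024912, chromosome 19, 5447547 to 5455946, plus strand), had 16.1 and 19.5 CPM in control and 12.4 and 16.8 CPM in PEDF-treated MEFs. It was lower with PEDF in each experiment, at 76.9% and 86.0% of control, but the PEDF library of experiment 2 lay above the control of experiment 1. The log2 fold change was -0.29 ± 0.16 (interval -0.62 to 0.05, adjusted p = 0.746 by edgeR without the block and 0.197 with it). With the block and the length trend removed it was larger in size, at -0.36 ± 0.12 (adjusted p = 0.0985 by edgeR). Without the PEDF library of experiment 1, in a fit without the block, it was -0.089. The 3′ part of Fosl1 shares 1163 bases of exon with Ccdc85b on the opposite strand, which held 229% to 335% as many counts as Fosl1. The strand setting of the counting is not given in the sources used here, so the Fosl1 counts are uncertain to that extent.

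Fosl2, which encodes Fra-2 (ENSMUSG00000029135, chromosome 5, 32135801 to 32157842, plus strand), was the most abundant member of the Fos family. It had 188 and 194 CPM in control and 168 and 176 CPM in PEDF-treated MEFs, and the groups did not overlap. The PEDF libraries held 89.3% and 90.8% of the level of their own control, and both counting intervals excluded 0 (-0.24 to -0.09 and -0.21 to -0.07 on the log2 scale). The log2 fold change was -0.15 ± 0.07 without the block (adjusted p = 0.714 by edgeR) and -0.15 ± 0.05 with it (adjusted p = 0.0565), the smallest adjusted p of the 10 genes. When a trend of the ratios with gene length was removed together with the block, the log2 fold change of Fosl2 was -0.08 ± 0.05 (adjusted p = 0.522), and none of the 10 genes was called, against 2.16% of all genes.

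The summed TPM of the Fos family was 100.5 and 108.9 in control and 89.3 and 99.2 in PEDF-treated MEFs, so both PEDF libraries lay below both controls. Fosl2 made up 52.7% to 54.5% of this sum in the 4 libraries. The share of Fos was 22.0% and 19.8% in control and 27.1% and 22.1% after PEDF, and the share of Fosb was 1.37% and 1.53% in control and 0.886% and 1.23% after PEDF. The groups did not overlap for these 2 shares, and they overlapped for the shares of Fosl1 and Fosl2. Shares within a family depend on each other and were not tested. By CPM, both PEDF libraries lay below both controls in 18.4% of all genes and above them in 18.9%.

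The Jun family comprised the 3 most abundant of the 10 genes by TPM. Jun, the prototype partner of Fos (ENSMUSG00000052684, chromosome 4, 95049034 to 95052222, minus strand), had 175 and 183 CPM in control and 177 and 173 CPM in PEDF-treated MEFs, with overlapping groups. Its log2 fold change was -0.03 ± 0.07, and the 95% interval from -0.18 to 0.11 bounds a change in either direction (adjusted p = 0.942 by edgeR). It was -0.07 ± 0.05 with the block and the length trend removed, and ran from -0.066 to -0.00069 with a library left out. Jun shares 232 exonic bases with the antisense transcript Junos, which held 11.9% to 14.2% as many counts as Jun.

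Junb, a Jun relative that often opposes Jun in cell cycle control (ENSMUSG00000052837, chromosome 8, 84976910 to 84978718, minus strand), had 121 and 110 CPM in control and 122 and 103 CPM in PEDF-treated MEFs. Here the libraries of experiment 1 stood above those of experiment 2 in both conditions, and the groups overlapped. The log2 fold change was -0.04 ± 0.09 (interval -0.22 to 0.14, adjusted p = 0.946 by edgeR). In fits without the block its sign turned when the control of experiment 1 or the PEDF library of experiment 2 was left out (0.029 and 0.077). Leaving out a library breaks a pair, so the difference between the experiments enters these values. With the block and the length trend removed it was -0.11 ± 0.05 (unadjusted p = 0.0472, adjusted p = 0.417).

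Jund, which encodes the subunit most abundant in resting cells (ENSMUSG00000071076, chromosome 8, 70698949 to 70700616, plus strand), had 230 and 211 CPM in control and 256 and 222 CPM in PEDF-treated MEFs. It was higher with PEDF in each experiment, at 111% and 105% of control, and both counting intervals excluded 0 (0.09 to 0.22 and 0.01 to 0.14 on the log2 scale). The control of experiment 1 nevertheless lay above the PEDF library of experiment 2, and the log2 fold change was 0.12 ± 0.08 (interval -0.05 to 0.29, adjusted p = 0.784 by edgeR without the block and 0.179 with it). With the block and the length trend removed it was 0.03 ± 0.05 (adjusted p = 0.875 by edgeR). Without the PEDF library of experiment 1, in a fit without the block, it was 0.012. Jund is a single exon, and 877 of its bases are shared with the antisense gene Gm11175, whose counts were 67.6% to 69.3% of those of Jund in every library. Reads of these genes cannot be told apart without the strand setting.

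The summed TPM of the Jun family was 731 and 708 in control and 758 and 704 in PEDF-treated MEFs, with no separation of the groups. Jund made up 53.2% and 51.7% of the sum in control and 55.6% and 54.5% after PEDF, and Junb 25.7% and 24.9% in control and 24.3% and 23.3% after PEDF. The groups did not overlap for these shares, and they overlapped for the share of Jun. The shares depend on each other and were not tested. The ratio of summed Jun family to summed Fos family TPM was 7.27 and 6.50 in control and 8.49 and 7.09 in PEDF-treated MEFs. It was higher with PEDF in each experiment, whereas the groups overlapped.

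**Figure D3:**
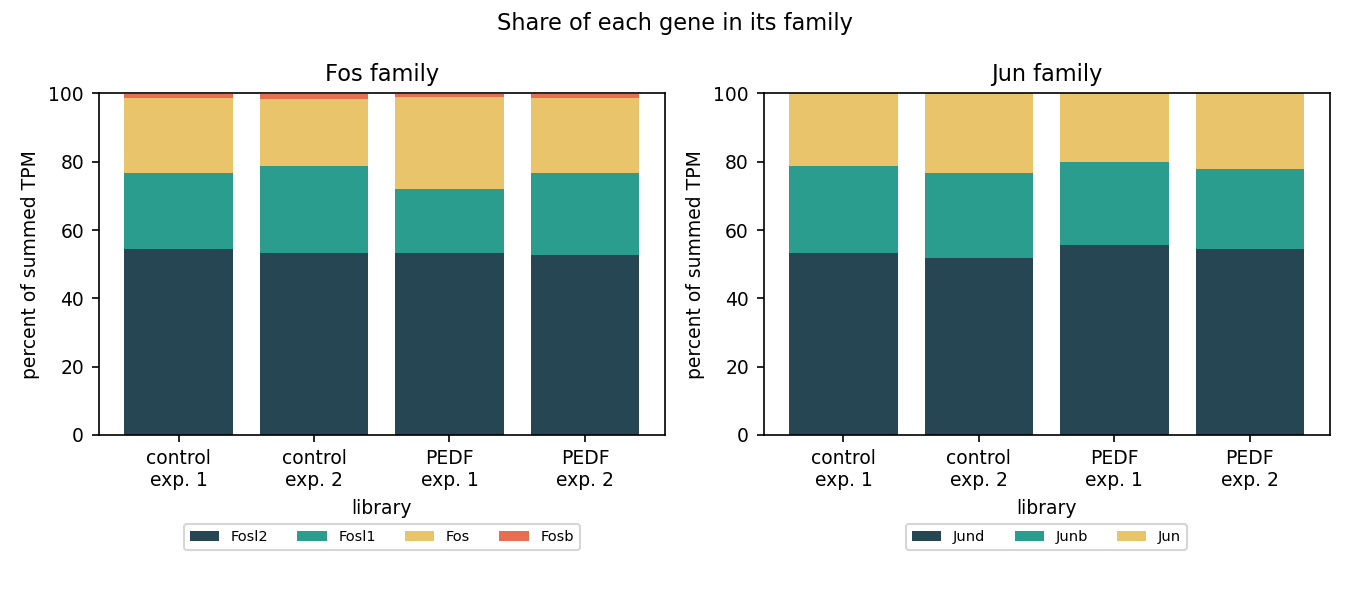
Share of each gene in the summed TPM of its family, in percent, for the 4 libraries (left, Fos family; right, Jun family). Fosl2 and Jund each take 51.7% or more of their family in every library, and Fosb is a thin band at the top of the Fos family.

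The Egr genes encode zinc finger factors that are induced beside Fos through serum response factor. Egr1 (ENSMUSG00000038418, chromosome 18, 34859823 to 34864984, plus strand) had 139 and 127 CPM in control and 129 and 129 CPM in PEDF-treated MEFs, and both PEDF values lay between the controls. Its log2 fold change was -0.05 ± 0.07, with an interval from -0.20 to 0.11 (adjusted p = 0.922 by edgeR), and its value was 0.022 without the control of experiment 1.

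Egr2 (ENSMUSG00000037868, chromosome 10, 67535475 to 67542188, plus strand), a factor best known from hindbrain patterning and myelination, had 135 and 192 counts in control and 122 and 136 counts in PEDF-treated MEFs. These correspond to 9.15 and 10.8 CPM in control and to 7.85 and 7.63 CPM after PEDF, and the groups did not overlap. The PEDF libraries held 85.8% and 70.9% of their own control, but the counting interval of experiment 1 included 0 (-0.59 to 0.14), while that of experiment 2 did not (-0.82 to -0.17). The log2 fold change was -0.37 ± 0.17 (interval -0.73 to -0.01, adjusted p = 0.719 by edgeR without the block and 0.224 with it). With the block and the length trend removed it was -0.40 ± 0.16 (adjusted p = 0.229 by edgeR). The stretch shown above lies upstream of a start inside the gene as annotated here, 2394 bases downstream of the gene start in the count table.

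Atf3, which encodes a stress-induced bZIP factor of the ATF/CREB family that pairs with Jun proteins (ENSMUSG00000026628, chromosome 1, 191170296 to 191218039, minus strand), had 127 and 138 counts in control and 89 and 154 counts in PEDF-treated MEFs. The RefSeq start used for the stretch shown above lies 34706 bases from the gene start in the count table. The levels were 8.61 and 7.74 CPM in control and 5.73 and 8.64 CPM after PEDF. The PEDF library of experiment 1 was the lowest and that of experiment 2 the highest. In experiment 1 the log2 ratio was -0.59, with a counting interval from -0.995 to -0.19, and in experiment 2 it was 0.16, with an interval from -0.18 to 0.50. The joint log2 fold change was -0.17 ± 0.20 (interval -0.61 to 0.26, adjusted p = 0.893 by edgeR), and without the PEDF library of experiment 1 it was 0.083.

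**Figure D4:**
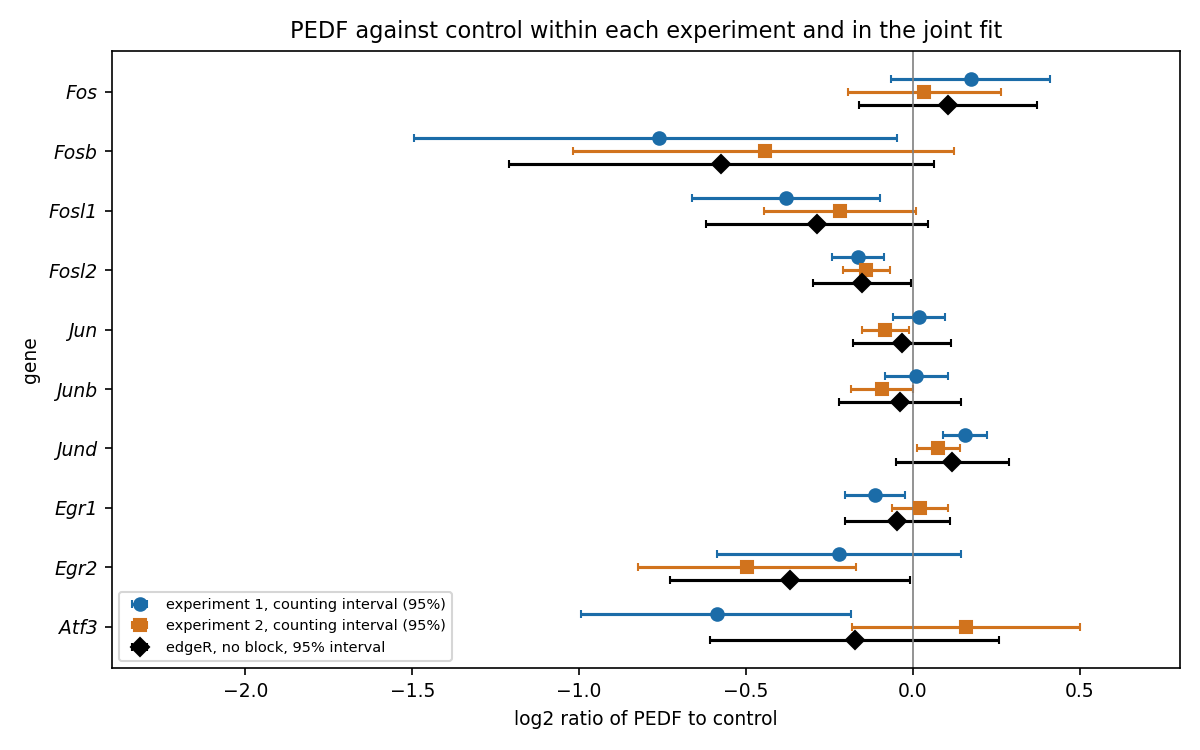
Log2 ratio of PEDF to control for each gene, within experiment 1 (blue circles) and experiment 2 (orange squares) with exact 95% counting intervals, and from the joint edgeR fit without a block (black diamonds) with 95% intervals. Fosb, Fosl1, Fosl2 and Egr2 lie left of 0 in both experiments, Fos and Jund lie right of it, and Atf3 lies on opposite sides.

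The same comparison was made between the experiments. The counting interval of PEDF against control excluded 0 for 6 genes in experiment 1 and for 5 in experiment 2, against 20.1% and 25.5% of all genes. That of the control of experiment 2 against the control of experiment 1 excluded 0 for 4 genes, against 24.1% of all genes. These intervals narrow with the counts of a gene, so the shares compare genes of unlike abundance. In 4 of the 10 genes the difference between the controls was larger in size than the log2 fold change of PEDF, as it was in 59.6% of all genes. For Fosl1 the controls differed by 0.28 and the PEDF libraries by 0.44 on the log2 scale, against -0.29 for PEDF. For Junb the controls differed by -0.13 and the PEDF libraries by -0.24, against -0.04 for PEDF.

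The genes around these factors were described in 5 lists, which hold 80 genes and all of which could be tested. No gene of the lists was called without the block (smallest adjusted p 0.695 by edgeR, 1 higher and 3 lower at an unadjusted p under 0.05, against 3.22% and 3.66% of all genes). With the block 5 of 80 were called, 1 higher and 4 lower, against 3.75% of all genes. DESeq2 with the block called 1, Thbs1, and 0.454% of all genes. The median log2 fold change without the block was 0.02 for 15 other bZIP partners, -0.03 for 16 upstream kinases and cofactors of serum response factor, -0.04 for 29 other immediate early genes, 0.08 for the 2 corepressors of Egr factors, and -0.09 for 18 AP-1 target genes, against 0.0012 for all genes. With the block and the length trend removed the medians were -0.06 for the other immediate early genes and -0.14 for the AP-1 target genes, against -0.0039 for all genes. In that fit they were 0.0072 for the other bZIP partners, -0.05 for the upstream kinases and cofactors, and 0.05 for the corepressors.

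Among the other bZIP partners none was called with or without the block. Batf2 and Batf, partners of Jun proteins in immune cells, had the largest log2 fold changes, at 0.31 ± 0.16 and 0.58 ± 0.46 (adjusted p = 0.733 and 0.814 by edgeR). Batf held only 79 counts in all. Of the upstream kinases and cofactors, Braf, a kinase at the head of the ERK cascade, had -0.22 ± 0.11, and Elk4, a ternary complex factor, had -0.18 ± 0.11 (adjusted p = 0.726 and 0.763). None was called with or without the block, and Srf, which encodes serum response factor itself, was called only when the length trend was also removed (-0.21 ± 0.06, adjusted p = 0.0398).

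Among the other immediate early genes, 3 were called by edgeR with the block. Myc, which encodes a growth-promoting factor, fell from 53.1 and 64.4 CPM in control to 45.8 and 52.2 CPM after PEDF, with a log2 fold change of -0.26 ± 0.07 (adjusted p = 0.0107). Ccn2, which encodes a matricellular protein, had 773 and 769 CPM in control and 615 and 760 CPM after PEDF, so its log2 fold change of -0.17 ± 0.04 (adjusted p = 0.00343) came from ratios of -0.33 in experiment 1 and -0.02 in experiment 2. Zfp36l1, which encodes an mRNA decay factor, rose from 138 and 125 to 154 and 141 CPM (0.17 ± 0.05, adjusted p = 0.0413), and with the length trend removed its log2 fold change was 0.12 ± 0.05, which did not pass (adjusted p = 0.268). The low-count genes Nr4a3, a nuclear receptor, and Arc, known from synapses, had the largest log2 fold changes of the uncalled genes, at -0.66 ± 0.43 and 0.24 ± 0.27 without the block. Their ratios took opposite directions in the 2 experiments.

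Both corepressors of Egr factors were uncalled, with log2 fold changes of 0.13 ± 0.08 for Nab1 and 0.04 ± 0.07 for Nab2. Among the AP-1 target genes, Thbs1, which encodes the matrix protein thrombospondin-1, fell with the block in the fit, from 4908 and 6208 CPM to 3921 and 5135 CPM, with a log2 fold change of -0.30 ± 0.04 (adjusted p = 6.77e-13 by edgeR with the block, and 0.758 without it). Among the others, Mmp9 had -0.27 ± 0.13, and Il6, with 56 counts in all, had -0.75 ± 0.53 without the block. Myc was also called without it when the control of experiment 1 was left out (-0.39 ± 0.10, adjusted p = 0.0462).

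**Figure D5:**
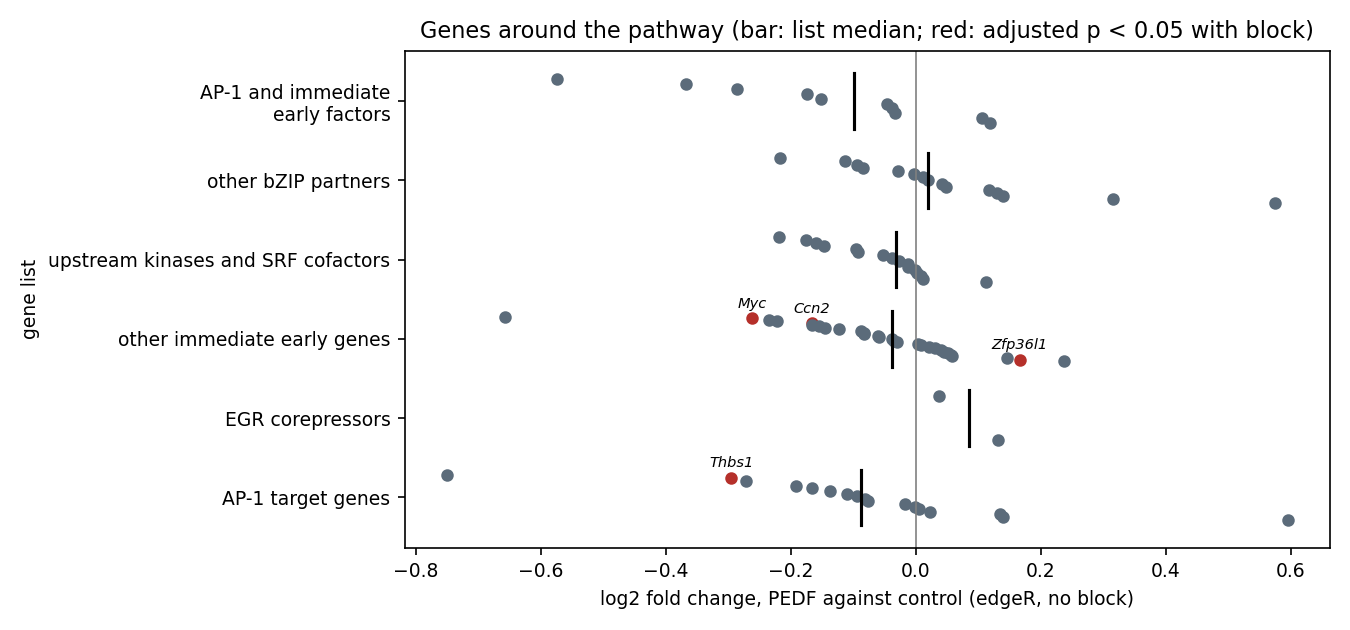
Log2 fold change of PEDF against control (edgeR, no block) for the 10 factors and for the genes of the 5 lists, 1 point a gene (1 AP-1 target gene is not drawn), with a black bar at the median of each list. Red points are genes with an adjusted p under 0.05 when the experiment was a block, and none of them is among the 10 factors.

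The cells expressed fibroblast markers. The 10 markers of fibroblasts summed to 47700 and 54480 CPM in control and to 43630 and 46620 CPM in PEDF-treated MEFs. This sum was lower with PEDF in each experiment. Col1a1 was the most abundant of the 10, and the direction of single markers was not examined. The marker sums were scaled to library totals without TMM factors, unlike the CPM above. Markers of other cell types were low, at 58.3 to 72.1 CPM for 6 macrophage genes, 14.3 to 14.9 for 5 endothelial genes, of which Tie1 had no count, 41.8 to 56.9 for 6 epithelial genes, and 202 to 299 for 6 skeletal muscle genes. The macrophage and epithelial sums were higher in experiment 1. The skeletal muscle sum, in which Actc1 was the most abundant gene, was higher with PEDF in each experiment (202 and 242 CPM in control, 238 and 299 CPM after PEDF). Their part in the values above was not tested.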

How the data were processed

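Polyadenylated RNA of 2 control and 2 PEDF MEF cultures was sequenced from directional libraries. Per the labels' processing notes and the paper's methods, the authors checked the reads with FastQC 0.11.7, trimmed them with Trimmomatic 0.38, aligned them to mm10 with HISAT2 2.1.0, handled the alignments with SAMtools 1.9 and assigned uniquely mapped reads to genes with featureCounts 1.6.3. The deposited counts are raw counts per gene. TPM values, deposited by the authors beside the counts, have the same total in each library. The annotation, the strand setting and the conversion to TPM are not given in the sources used here. The paper gives passage 3 for the sequenced cells, and the labels give passage 2. Coordinates equaled those of GENCODE release M21 for 54784 of the 55487 genes, Junb not among them.

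Counts were analyzed in R 4.3.3 with edgeR 4.0.16 (TMM factors from 0.983 to 1.01, quasi-likelihood test with robust dispersions, p-values adjusted by Benjamini-Hochberg across the 19384 genes whose counts summed to 10 or more). The F statistic of each test gave the standard error. The counts of a pair of libraries gave exact Clopper-Pearson intervals for the ratios within an experiment. By the series' design text the embryos differed between experiments, so the control and PEDF libraries with the same number came from 1 MEF preparation. The fit without the experiment as a block did not use this pairing. Its standard errors were larger than with the block for every member, as for Jund (0.08 against 0.05). The gap between experiments in control libraries correlated with the gap in PEDF libraries (r = 0.423, across 10722 genes with a mean log2 CPM above 3, which are not independent replicates). The experiment as a block was an alternative, as were DESeq2 1.42.0, RLE factors, no filter, filterByExpr, the block with a spline of gene length (5 degrees of freedom) removed, limma 3.58.1 on log2(TPM + 1) and log2(TPM + 0.1), and each library left out in turn. The methods were tested on simulated data with larger changes than those of the members and no difference between experiments. That simulation does not show how small a change these fits could detect. The members and lists were chosen with earlier results of these data known. From each list, the text names genes called with or without the block (at most 6) and the 2 other genes with at least 50 counts that had the largest log2 fold change. Srf is named outside this rule and was chosen after its values were seen. The values of 1 gene this rule names are not reported here.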

Additional observations from a re-analysis of the deposited data

Results flagged for a closer look

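For 6 of the genes named in the report the CPM ratios of the 2 experiments took opposite directions, and the difference between the experiments was not tested, since each holds 1 library per condition. The log2 ratio of PEDF to control in experiment 2 minus that in experiment 1 was 0.75 for Atf3, which was lower with PEDF in experiment 1 and higher in experiment 2. It was 0.14 for Egr1, -0.10 for Jun and -0.10 for Junb, which were both lower in both experiments with ratios of TPM. Among the other immediate early genes it was -1.58 for Nr4a3, which held 103 counts in all, and -0.55 for Arc, which held 266. Over all 80 genes of the lists, 35 (43.8%) took opposite directions in the 2 experiments, near the 41.1% of all genes tested that did.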

How the results depend on the processing

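In the main fit and in each alternative that kept all libraries, 0 of the 10 factors had an adjusted p under 0.05. Of all genes, 0.00516% passed in the main fit, 0% with filterByExpr and with limma, and at most 3.75%, with the block in edgeR. With so few genes called, a count of 0 among 10 is near the share over all genes. At an unadjusted p under 0.05 there were 2 without the block (6.88% of all genes), 5 with the replicate block in edgeR (14.6%), 3 with the block and the length trend removed (11.7%), 3 without the filter on low counts (6.58%), 0 with DESeq2 without and with the block (1.46% and 1.66%), and 0 with limma at either pseudocount (4.95% and 4.78%). DESeq2 with the block gave no adjusted p for 5 of the 10. Of 130 log2 fold changes of these genes under alternatives, 125 kept their sign and 5 reversed it, all with a library left out. Over the left-out libraries the log2 fold change ran from -0.0019 to 0.21 for Fos, from -0.16 to 0.077 for Junb (0.029 without the control of experiment 1), from -0.11 to 0.022 for Egr1 and from -0.51 to 0.083 for Atf3. The sign was kept but the size moved for Jun (-0.066 to -0.00069 without the controls of experiments 1 and 2), Fosb (-0.88 without the PEDF library of experiment 2 to -0.34 without that of experiment 1), Fosl1 (-0.53 to -0.089 without the same libraries), Jund (0.22 to 0.012 likewise) and Egr2 (-0.48 to -0.24 without the controls of experiments 1 and 2). A lone library was then assumed to vary like the other group. The fits with a library left out had no block. They broke a pair, so the difference between the experiments entered the log2 fold change. Of the 80 genes in the 5 lists, 0 were called in the main fit (0.00516% of all genes) and 5 with the replicate block (3.75%). DESeq2 with the replicate block called 1 (0.454%), and edgeR with the block and the length trend removed called 5 (2.16%). The replicate block pairs libraries of an experiment and changed the call of no factor. Of the 20 ratios within experiments, none changed sign with library totals and 2 did with TPM, those of Jun and Junb in experiment 1 (-0.02 and -0.03). A gene with few counts, such as Fosb, could be measured only with wide intervals at this depth.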
